A study of Pinus pinaster with 12 samples.

Results

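The comparison described here is the change, with ammonium, of the ratio of m6A-precipitated RNA to input RNA in roots of maritime pine (Pinus pinaster). It was made with all 12 libraries of the series, 3 in each of 4 groups. The groups were input RNA and m6A immunoprecipitate (IP) of seedlings irrigated with 80 mL of water, and input and IP of seedlings irrigated with 80 mL of 3 mM NH4Cl. All seedlings were 1 month old, came from the Segura-Alcaraz provenance, had been acclimated in seedbeds with distilled water, and gave polyadenylated root RNA 24 h after irrigation. Per the labels' protocols, the experiment was run 3 times, so the p-values measure the spread between 3 runs. How many seedlings stand behind each library is not given in the labels, and root markers could not be checked because the transcript IDs carry no gene names.

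N6-methyladenosine (m6A) is a methylated adenosine inside messenger RNA. It is laid down by a methyltransferase complex, removed by demethylases and bound by reader proteins of the YTH family, and in plants it is known for roles in messenger RNA stability and in development. An antibody against m6A pulls down methylated RNA fragments, so a transcript's level in the IP depends on its abundance as well as on its methylated share, and the ratio of IP to input is used to separate them. The ratio change used below is the log2 IP/input with ammonium minus the log2 IP/input with water. It is positive where the ratio was higher with ammonium.

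Library totals ran from 69030249 to 81534388 counts in the 6 inputs and from 57945305 to 73185176 in the 6 IP libraries. The libraries of the ammonium IP (65539363 to 73185176) were all deeper than those of the water IP (57945305 to 63522543). Replicate 1 of the water IP stood apart from all other libraries. On the first principal component it scored 426.1, where the other 5 IP libraries scored 756.1 to 901.7 and the inputs -758.8 to -716.8, and on the second it scored 480.4, where all others lay between -138.4 and 27.9. The main results are therefore given with and without this library, while counts of ratios that do not overlap use all libraries. Levels of single transcripts are counts divided by the library total and written as CPM, and ratios were taken after scaling by the trimmed mean of M-values. The scaling factors were 1.20 to 1.28 in the inputs, 1.00, 0.899 and 0.835 in the water IP and 0.697, 0.720 and 0.760 in the ammonium IP, so this scaling raises each ratio change above that taken on library totals.

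No transcript was called for a different IP/input ratio between the treatments. The interaction was tested by quasi-likelihood in edgeR for 148273 transcripts, of which 0 (a background of 0%) had a Benjamini-Hochberg adjusted p under 0.05, the lowest being 0.556. At an unadjusted p under 0.05 there were 13109 transcripts (8.84%), of which 5108 (3.44%) had a higher ratio with ammonium and 8001 (5.4%) a lower ratio. Limma's voom with sample weights called 1 of 148273 transcripts. DESeq2 called 93 of 147589, of which 6 had a higher ratio and 87 a lower ratio. The median ratio change over all transcripts was -0.22, with 58.1% of the transcripts below 0. When replicate 1 of the water IP was left out, 0 of 159383 transcripts (0%) were called, with adjusted p from 0.401 upwards in edgeR. In that fit 11089 (6.96%) had an unadjusted p under 0.05, 5476 of them with a higher and 5613 with a lower ratio, and the median was -0.01. In edgeR's unadjusted p-values the excess of lower over higher ratios was thus present with this library and nearly absent without it. DESeq2 still called 78 of 159375 transcripts without it, 19 with a higher and 59 with a lower ratio. Without replicate 2 of the water IP 28 of 157353 transcripts were called in edgeR, all 28 with a lower ratio. Omission of each of the other libraries gave 0.

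The precision of a single ratio change depended on abundance. The median 95% interval of a single transcript's ratio change was 0.51 wide on either side on the log2 scale (1.43-fold) for transcripts of at least 50 CPM, 0.63 (1.55-fold) from 10 to 50 CPM and 1.12 (2.17-fold) from 2 to 10 CPM. Below that it was 1.96 (3.88-fold) from 0.5 to 2 CPM and 3.45 (10.9-fold) under 0.5 CPM. These intervals are unadjusted, and a larger change did not suffice for a call after adjustment: the ratio change of pp_87077, at least 50 CPM, was 1.08 with an SE of 0.18 and an adjusted p of 0.556 in edgeR.

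In the fitted medians the ratio change followed abundance, positive in abundant and negative in scarce transcripts, though no stratum passed a test over libraries. The strata were set by the mean CPM over all 12 libraries, and the fitted median was -0.40 under 0.5 CPM (66900 transcripts), -0.38 from 0.5 to 2 CPM (34086), -0.15 from 2 to 10 CPM (27989), 0.20 from 10 to 50 CPM (15238) and 0.31 at 50 CPM or more (4060). The share of transcripts with a higher ratio was 38.4%, 34.9%, 42.5%, 63.1% and 75.2% in the same order. Relative to the median of all transcripts, which shifts with the scaling, the strata lay at -0.18, -0.15, 0.07, 0.42 and 0.53. The same order held in a narrower span when replicate 1 of the water IP was left out, with fitted medians of -0.14, -0.10, 0.03, 0.14 and 0.17. With library totals in place of the trimmed mean, the fitted medians were -0.66, -0.67, -0.44, -0.08 and 0.03. The change of the library medians on that scale was 0.06 at 50 CPM or more and -0.02 from 10 to 50 CPM, so the positive sign of the latter stratum depended on the scaling.

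On the scale of the trimmed mean with all libraries, the medians of the abundant strata differed more in the IP than in the input. At 50 CPM or more the median change with ammonium was 0.06 in the input and 0.37 in the IP, and from 10 to 50 CPM it was 0.05 in the input and 0.24 in the IP. Under 0.5 CPM it was 0 in the input and -0.37 in the IP. These medians were not taken on library totals or without replicate 1 of the water IP. On library totals the fitted median ratio change was 0.03 at 50 CPM or more and -0.08 from 10 to 50 CPM. In these bulk samples fewer cells of a type and less RNA per cell cannot be told apart, so a change in either the input or the IP may come from either.

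Single libraries were apart in the abundant strata on the scale of the trimmed mean. At 50 CPM or more, the median log2 level of an IP library minus the mean of the 3 inputs of its treatment was 0.64, 0.78 and 0.95 in the water IP and 1.20, 1.12 and 1.05 in the ammonium IP. From 10 to 50 CPM it was 0.08, 0.01 and 0.24 with water and 0.43, 0.36 and 0.29 with ammonium. In both strata every ammonium IP library lay above every water IP library. On library totals this held by a narrow gap at 50 CPM or more, with 0.32, 0.30 and 0.37 against 0.41, 0.37 and 0.38, where the nearest libraries were at 0.368 and 0.371. It did not hold from 10 to 50 CPM, where the values were -0.25, -0.47 and -0.34 with water and -0.36, -0.39 and -0.38 with ammonium. From 2 to 10 CPM the libraries overlapped, with -0.21, -0.87 and -0.41 against -0.45, -0.49 and -0.61. They overlapped too from 0.5 to 2 CPM (0.01, -0.77 and -0.39 against -0.52, -0.50 and -0.67) and under 0.5 CPM (0.39, 0.21 and -0.31 against -0.16, -0.07 and -0.24). Replicate 1 of the water IP was the highest library of its group in the 3 lower strata and the lowest in the highest stratum.

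**Figure D1:**
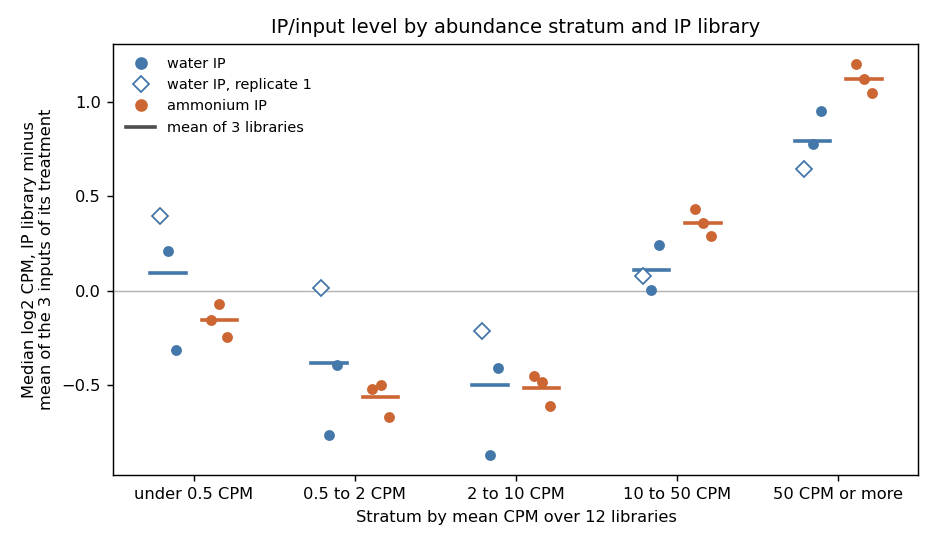
Median log2 CPM of each IP library minus the mean of the 3 inputs of its treatment (vertical axis, log2 units) for 5 abundance strata (horizontal axis, mean CPM over 12 libraries), with points for libraries, bars for means of 3 and an open diamond for replicate 1 of the water IP. The water and ammonium points are apart in the strata of 10 to 50 CPM and of 50 CPM or more and overlap in the 3 lower strata. On library totals the points from 10 to 50 CPM overlap too.

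None of these stratum changes passed a test over libraries. With 1 median per library, the interaction was 0.33 at 50 CPM or more (adjusted p = 0.35 over the 5 strata, two-sided exact permutation of treatment within IP and within input, 400 arrangements) and 0.25 from 10 to 50 CPM (adjusted p = 0.35 in the same exact test). It was -0.02 from 2 to 10 CPM, -0.18 from 0.5 to 2 CPM and -0.25 under 0.5 CPM, with adjusted p of 0.87, 0.656 and 0.625 by exact permutation. The highest stratum exceeded the lowest by 0.59 (exact permutation p = 0.27), and by 0.29 without replicate 1 of the water IP (exact permutation p = 0.6). With strata set by the mean CPM of the 6 inputs alone, this difference was 0.10 (exact permutation p = 0.87) and the fitted medians were -0.28, -0.38, -0.18, 0.04 and 0.03 from the lowest stratum to the highest. The medians of the abundant strata were thus closer to 0 when IP reads did not count towards the abundance.

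Read shares of the strata need no scaling factors. Transcripts of at least 50 CPM took 41.5% ± 0.971 of the reads in the water inputs, 42.0% ± 0.537 in the ammonium inputs, 52.9% ± 1.94 in the water IP and 56.5% ± 0.483 in the ammonium IP (SD, n = 3). The difference of differences was 3.10 percentage points (exact permutation p = 0.16, adjusted p = 0.256 over the 5 strata) and 2.25 without replicate 1 of the water IP (exact permutation p = 0.235). The share in the ammonium IP was thus above that in the water IP in every library. The difference of differences did not pass, in a test of little power with 3 libraries a group. From the lowest stratum upwards the other strata had differences of -0.49, -0.92, -1.501 and -0.04 percentage points (adjusted p = 0.256, 0.256, 0.256 and 0.945 by exact permutation). The stratum from 10 to 50 CPM thus had no positive value on this scale, and it was 0.36 without replicate 1 of the water IP.

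The ratios by replicate number were counted where the 3 ammonium values lay all above or all below the 3 water values. Over all 148273 transcripts, 11764 (7.93%) lay above and 7130 (4.81%) below. At 50 CPM or more, 1383 of 4060 (34.1%) lay above and 19 (0.468%) below, and from 10 to 50 CPM the shares were 26.5% and 0.893%. From 2 to 10 CPM 10.51% lay above and 3.19% below. In the lower strata 3.69% lay above and 5.71% below from 0.5 to 2 CPM, and 3.21% above and 6.18% below under 0.5 CPM. Without any difference between treatments, 1 of 20 arrangements of such values lies all above and 1 of 20 all below. The shares of the lower strata were close to this, so no direction is read from them. The unadjusted p-values had the same split: at 50 CPM or more 1029 transcripts had p under 0.05 with a higher ratio and 73 with a lower ratio, and under 0.5 CPM 1038 and 3754. These counts were 436 and 38 in the highest stratum and 1836 and 2708 in the lowest when replicate 1 of the water IP was left out.

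These counts also depended on the scaling. On library totals 4852 (3.27%) of all transcripts lay above and 11443 (7.72%) below, the reverse order of that with the trimmed mean. At 50 CPM or more 11.5% still lay above and 2.07% below, but in the unadjusted p-values the order turned, with 148 transcripts of a higher and 221 of a lower ratio. From 10 to 50 CPM 8.31% lay above and 4.17% below, and from 2 to 10 CPM, where the order turned, 3.19% above and 7.78% below. In the lower strata the share below was the larger with either scaling.

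Transcripts depleted from the IP had the most negative median. Classes were set by the mean log2 IP/input over both treatments. For the 51669 transcripts whose IP level was at least 4-fold below the input level, the median ratio change was -0.91, and it was -0.21 in the 26953 transcripts that were up to 4-fold lower. It was 0.27 in the 22948 transcripts up to 4-fold higher in the IP and 0.03 in the 46703 transcripts at least 4-fold higher. Leaving out replicate 1 of the water IP gave medians of -0.00, 0.04, 0.16 and -0.23, so the most negative median was no longer present. The class up to 4-fold higher kept a positive median, with 1866 transcripts of p under 0.05 with a higher ratio against 148 with a lower ratio, and 907 against 174 without that library. On library totals its median was -0.00, with 239 against 345 transcripts, so its positive median depended on the scaling. The other medians on library totals were -1.21, -0.50 and -0.25 from most depleted to most enriched, so the near-zero median of the most enriched class also changed sign.

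Replicate 1 of the water IP held more reads of depleted transcripts than any other IP library. In the class at least 4-fold lower in the IP, the log2 level over the inputs was -2.14 in this library, -4.27 and -4.16 in the other water IP libraries and -4.10, -4.25 and -4.19 in the ammonium IP. The class took 6.44% of its reads, where it took 1.55% and 2.65% in replicates 2 and 3 and 1.71% ± 0.0970 in the ammonium IP (SD, n = 3). Among transcripts of at least 0.5 CPM, its level over the mean of replicates 2 and 3 had a median of 3.56 in that class, 1.61 and 1.03 in the next classes and 0.793 in the class at least 4-fold higher in the IP. In the class up to 4-fold higher this library did not stand apart, with 0.86 against 0.79 and 0.95 in the other water IP libraries and 1.14, 1.02 and 1.01 with ammonium, and there the water and ammonium libraries did not overlap. On library totals they did, with 0.54, 0.31 and 0.36 against 0.34, 0.27 and 0.34.

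**Figure D2:**
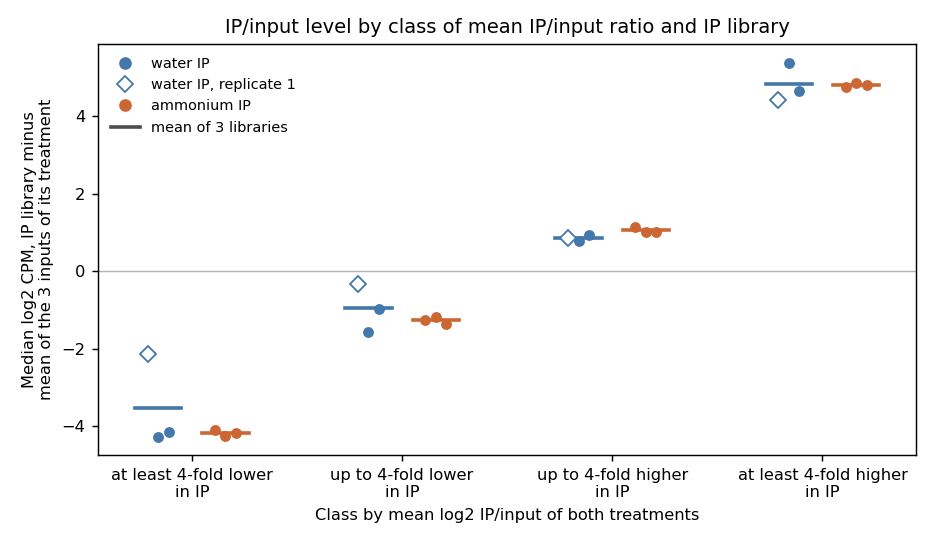
Median log2 CPM of each IP library minus the mean of the 3 inputs of its treatment (vertical axis, log2 units) for 4 classes of the mean IP/input ratio (horizontal axis), with points for libraries, bars for means of 3 and an open diamond for replicate 1 of the water IP. In the class at least 4-fold lower in the IP the diamond is at -2.14 and the other 5 IP libraries are between -4.27 and -4.10. The class up to 4-fold higher, apart here, overlaps on library totals.

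Abundance and ratio class could be crossed, here on the scale of the trimmed mean alone. At 50 CPM or more the median ratio change was -0.79 in the 714 transcripts at least 4-fold lower in the IP, 0.15 in the 635 up to 4-fold lower, 0.39 in the 1220 up to 4-fold higher and 0.39 in the 1491 at least 4-fold higher. They were -0.14, 0.11, 0.23 and 0.20 when replicate 1 of the water IP was left out. Under 0.5 CPM the medians were -0.90, -0.48, -0.00 and -0.23 with all libraries, and 0.12, 0.06, -0.05 and -0.51 without it. The 25167 scarce transcripts at least 4-fold higher in the IP thus had a more negative median without that library, and the 24388 scarce depleted ones a positive median.

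**Figure D3:**
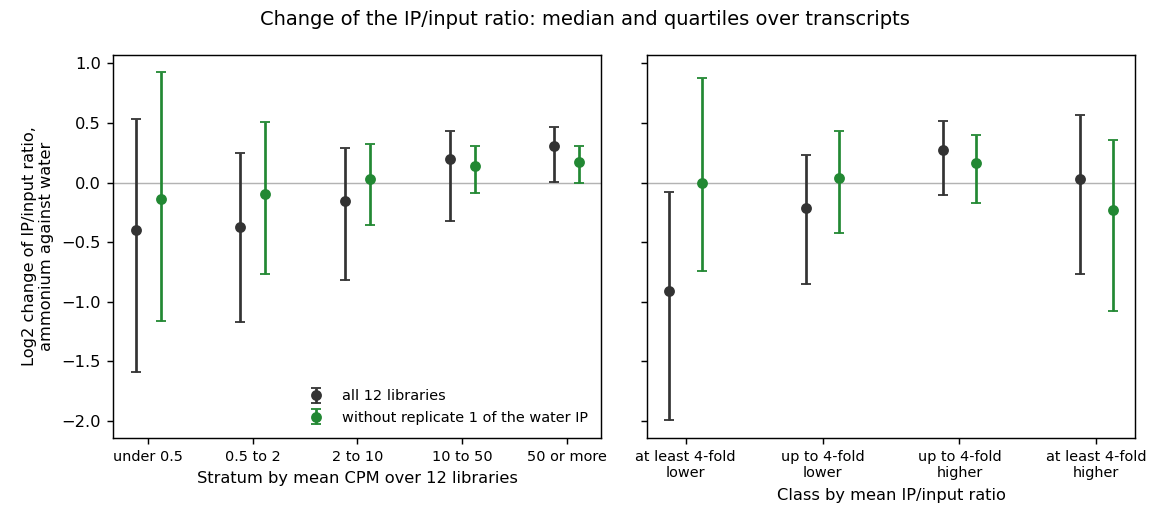
Median (points) and quartiles (bars) over transcripts of the log2 change of the IP/input ratio, ammonium against water (vertical axis), by abundance stratum and by class of mean IP/input ratio (horizontal axes), with all 12 libraries and with replicate 1 of the water IP left out. The medians span -0.40 to 0.31 over the strata and -0.91 to 0.27 over the classes with all libraries, and -0.14 to 0.17 and -0.23 to 0.16 without that library. On library totals, not drawn, they span -0.67 to 0.03 and -1.21 to -0.00 with all libraries.

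The median ratio change was positive in transcripts with a peak in both of the authors' deposited lists or in the ammonium list. The lists name m6A peaks by transcript, 1 list for each treatment, and they were made from the same libraries, so they describe these data and support nothing independently. It was 0.34 in the 4966 transcripts with a peak in both lists (0.17 without replicate 1 of the water IP) and 0.32 (0.20) in the 1109 of the ammonium list only. It was -0.12 (-0.21) in the 1002 of the water list only and -0.27 (-0.01) in the 141196 without a peak. Peaks were more frequent in abundant transcripts, at 0.583%, 4.17%, 5.98%, 14.9% and 32.5% from the lowest stratum to the highest. Within the highest stratum the median was 0.41 in the 1206 transcripts with a peak in both lists, 94.5% of them with a higher ratio, and 0.24 in the 2739 without a peak, 66.5% of them with a higher ratio. These medians were 0.22 and 0.14 without replicate 1 of the water IP, and 0.14 and -0.03 on library totals. On library totals the median over all abundances was 0.07 with a peak in both lists, 0.04 for the ammonium list only, -0.41 for the water list only and -0.55 without a peak. From 10 CPM upwards, the level over the inputs of transcripts with a peak in both lists exceeded that of transcripts without a peak by 1.18, 1.58 and 1.39 in the water IP and by 1.59, 1.51 and 1.55 in the ammonium IP. These values overlapped between the treatments, and the lowest belonged to replicate 1 of the water IP. Over all tested transcripts the excess was 0.97, 1.46 and 1.74 in the water IP and 2.06, 1.91 and 2.02 in the ammonium IP, without overlap. Abundance is not held level there, since peaks were more frequent in abundant transcripts, and the difference was not tested.

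Single transcripts were named by rank of p among those whose ratios by replicate number did not overlap, 3 in each direction in each stratum from 0.5 CPM upwards. In edgeR with all libraries the adjusted p was 0.556 for each of these 24, so none was called. Without replicate 1 of the water IP their adjusted p in edgeR ran from 0.401 to 0.716. Their direction there is largely set by the choice of ratios that do not overlap. The files give no gene name for any of them, and IDs with neighbouring numbers could share reads. Apart from the runs described below, pp_172278 and pp_145075 had the most such neighbours. Within 5 ID numbers, 4 and 3 other IDs had an unadjusted p under 0.05 and the same sign, so these may not be separate observations. The log2 ratio changes given below for single transcripts are on the scale of the trimmed mean, which raises each above that on library totals.

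The abundant transcript pp_198174 had more IP reads with ammonium, at an input whose CPM was slightly lower in every ammonium library. Its input was 271, 264 and 278 CPM with water and 252, 247 and 256 with ammonium, and its IP was 748, 670 and 628 CPM with water and 813, 801 and 851 with ammonium. The IP groups did not overlap, and replicate 1 of the water IP was the nearest to the ammonium libraries. Its ratio change was 0.65 (SE 0.11) and 0.56 without that library. This was the transcript called by voom with sample weights (adjusted p = 0.00414), a call that was lost when replicate 1 of the water IP was omitted. The authors' deposited table lists a peak at positions 400 to 650 of the transcript with a fold of 40.6 for water and at 400 to 700 with a fold of 66.7 for ammonium.

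The ratio change of pp_87077 was larger, at 1.08 (SE 0.18) and 0.94 without replicate 1 of the water IP. Its IP levels were 89.3, 89.2 and 85.0 CPM with water and 139, 117 and 144 with ammonium, while its input was 46.3, 39.1 and 48.5 CPM with water and 41.2, 38.4 and 36.0 with ammonium. The water IP libraries lay close together and below all ammonium IP libraries, and the inputs overlapped. The authors' deposited table has the same peak in both lists, at positions 642 to 790, with a fold of 29.9 for water and 66.9 for ammonium. The 5 IDs that follow it, pp_87078 to pp_87082, also had an unadjusted p under 0.05 and the same sign, so these IDs may not be separate observations. The third abundant transcript with a higher ratio, pp_117889, had no listed peak and IP levels of 170, 148 and 140 CPM against 200, 183 and 191, at inputs of 175, 162 and 177 against 169, 163 and 160. Its ratio change was 0.67 (SE 0.14), and 0.59 without replicate 1 of the water IP.

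At 50 CPM or more, the lower ratios of smallest p came from transcripts whose input was high in some ammonium libraries. For pp_145075 the input was 134, 148 and 130 CPM with water and 331, 250 and 167 with ammonium, and the IP was 76.9, 29.3 and 38.9 CPM with water and 12.1, 21.2 and 12.8 with ammonium. Neither pair of groups overlapped, and replicate 1 of the water IP had the highest IP level. The ratio change was -2.21 (SE 0.44) and -1.88 without that library. The run of IDs pp_88949 to pp_88955 stood together, with every ID in it at an unadjusted p under 0.05 and with a lower ratio. Its member pp_88950 had 140, 109 and 74.0 CPM in the water inputs and 794, 176 and 78.3 in the ammonium inputs, with an IP of 55.3, 17.9 and 24.4 CPM against 5.50, 11.7 and 4.42. The input of ammonium replicate 1 was several times the others, and the ratio change of -3.55 (SE 0.96) became -2.09 without it. In the same run pp_88954 had a ratio change of -3.50 (SE 0.93), or -2.07 without that input library. Without replicate 1 of the water IP these were -3.09 and -3.11.

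From 10 to 50 CPM, pp_79524 and pp_137977 had higher ratios with small spread. The IP of pp_79524 was 11.7, 11.05 and 10.9 CPM with water and 17.7, 16.3 and 17.2 with ammonium, at inputs of 14.0, 14.7 and 13.6 against 13.9, 11.7 and 10.4, and its ratio change was 1.11 (SE 0.23), or 0.99 without replicate 1 of the water IP. The transcript pp_137977 was depleted from the IP in spite of a listed peak. It had 2.31, 2.53 and 1.74 CPM in the water IP and 3.97, 3.48 and 3.71 in the ammonium IP, at inputs of 20.8 to 24.3 CPM, and a ratio change of 1.08 (SE 0.25), or 0.95 without that library. Its peak at positions 1388 to 1487 has a fold of 4.37 in the authors' deposited table for water, and at 1338 to 1487 a fold of 6.6 for ammonium.

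The lower ratio of pp_235812 came with a higher input. Its input rose with ammonium, from 8.72, 8.42 and 5.94 CPM to 24.4, 43.2 and 30.5, a log2 change of 2.13 (SE 0.26, adjusted p = 0.0257 in edgeR over the 6 inputs). The IP did not follow, with 11.4, 13.6 and 21.1 CPM with water and 12.7, 10.4 and 15.6 with ammonium, and the IP groups overlapped. That gave a ratio change of -2.10 (SE 0.42), and -2.40 without replicate 1 of the water IP. By contrast pp_67727 had a level input, at 48.8, 53.4 and 50.8 CPM against 48.7, 50.3 and 47.6, and a low IP of 0.740, 0.493 and 0.518 CPM against 0.224, 0.191 and 0.214. These low IP levels rest on 29 to 47 reads with water and 14 to 15 with ammonium, and the ratio change was -1.13 (SE 0.24), or -1.09 without that library. The third, pp_172278, had a ratio change of -3.09 (SE 0.68), or -2.58 without that library, with an IP of 20.01, 6.37 and 7.71 CPM against 1.66, 2.69 and 1.89 and overlapping inputs of 11.4 to 16.9 and 10.3 to 48.1 CPM.

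From 2 to 10 CPM, pp_105377 showed the same form as pp_235812 with much less spread. Its input rose from 3.39, 3.51 and 3.75 CPM to 9.11, 9.68 and 9.44, a log2 change of 1.46 (SE 0.12, adjusted p = 0.00192 in edgeR over the 6 inputs). Its IP stayed between 9.95 and 12.2 CPM in all 6 libraries. The ratio change was -1.31 (SE 0.24), and -1.46 without replicate 1 of the water IP, where its adjusted p in edgeR was 0.401. The ratio change of pp_105377 was called by DESeq2 with all libraries (adjusted p = 0.00246). The reverse form was seen in pp_94510, whose input fell from 9.52, 9.57 and 8.68 CPM to 5.30, 4.32 and 5.76 (log2 change -0.80, SE 0.14, adjusted p = 0.0471 in edgeR over the 6 inputs), while its IP was 1.28, 1.02 and 0.794 CPM against 1.25, 1.68 and 1.37. Its ratio change was 1.62 (SE 0.36), or 1.64 without that library.

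A large lower ratio at level input was seen in pp_141822 and pp_141824, whose ID numbers are 2 apart. The IP of pp_141822 was 14.5, 6.61 and 3.35 CPM with water and 0.448, 0.451 and 0.565 with ammonium, at inputs of 2.26, 3.10 and 2.85 against 2.43, 2.07 and 2.56. The water IP spread over a wide range and was highest in replicate 1, yet its lowest library lay well above all ammonium libraries. This gave a ratio change of -3.52 (SE 0.57), and -3.02 without replicate 1 of the water IP. For pp_141824 the IP was 4.82, 1.72 and 2.04 CPM against 0.134, 0.246 and 0.336, and the ratio change was -3.30 (SE 0.55), or -2.89 without that library. DESeq2 called both, the ratio change of pp_141822 with adjusted p = 8.49e-06 and the ratio change of pp_141824 with adjusted p = 2.17e-06. The higher ratios of this stratum were smaller, at 1.22 (SE 0.32) for pp_119152, with an IP of 4.203, 4.18 and 3.66 CPM against 5.23, 6.98 and 6.61, and 1.10 (SE 0.30) for pp_98727. The latter had an IP of 9.18, 7.85 and 8.70 CPM against 7.75, 9.41 and 9.23 and inputs of 2.07, 2.59 and 2.33 against 1.18, 1.44 and 1.42, so the separation lay in the input. Without replicate 1 of the water IP these ratio changes were 1.11 and 1.00. Its peak at positions 987 to 1283 has nearly the same fold in both of the authors' deposited lists, 64.7 for water and 65 for ammonium.

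**Figure D4:**
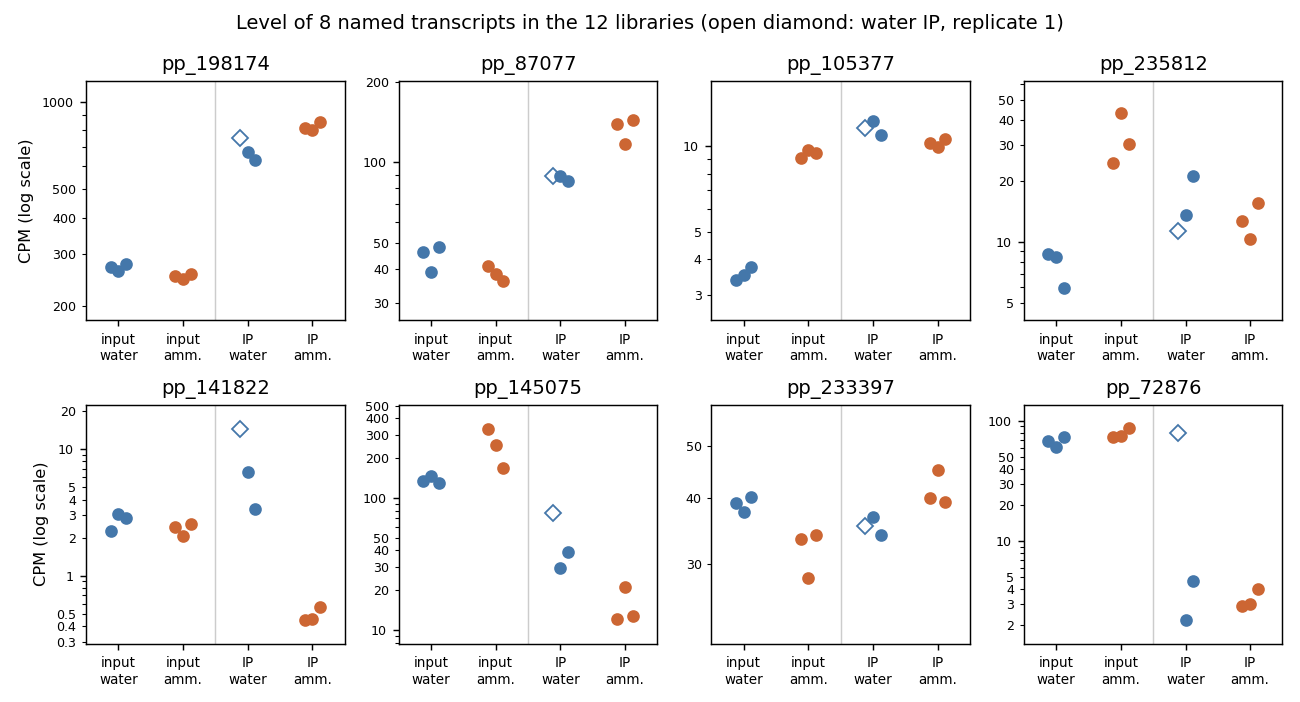
Level in CPM (vertical axis, log scale) of 8 transcripts in each of the 12 libraries, grouped as input and IP with water and with ammonium (horizontal axis), with an open diamond for replicate 1 of the water IP. The IP points of pp_87077 are apart between treatments, the input points of pp_105377 and pp_235812 are apart while their IP points are not far apart, and the diamond of pp_72876 is at 78.7 CPM where the other IP libraries are between 2.19 and 4.69.

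Several named transcripts had no read in the IP of 1 treatment. The abundant input transcript pp_133143 had 0 reads in all water IP libraries and 10, 5 and 6 in the ammonium IP, at 1503 to 2057 input reads. Against a floor of 3 counts over the group with 0 reads, other counts as observed, its ratio was at least 6.71-fold higher with ammonium. Without replicate 1 of the water IP it was at least 4.35-fold higher. From 0.5 to 2 CPM the named transcripts were all of this sparse kind. For pp_119703 there were 0 reads with water against 8, 6 and 4 (ratio at least 5.96-fold higher), and for pp_159899 0 against 2, 8 and 6 (at least 4.99-fold higher). These bounds were 3.86 and 3.23 without replicate 1 of the water IP, where the floor is over 2 libraries. The transcript pp_167095 had 2, 1 and 0 reads against 16, 6 and 8. Its IP level was 8.77-fold higher, with a 95% counting interval of 2.73 to 44.9 that leaves the input out, and its IP/input ratio was 12.1-fold higher. Without replicate 1 of the water IP, where 1 read remains with water, these were 17.0-fold (2.83 to 694.9) and 23.4-fold. In the other direction, the ammonium IP had 0 reads of pp_135057, pp_66090 and pp_209487, which had 6, 12 and 6, 10, 8 and 8, and 13, 8 and 6 reads in the water IP. Their ratios were at least 8.35-fold, 8.96-fold and 10.3-fold lower with ammonium, and at least 9.67-fold, 8.51-fold and 8.23-fold lower without that library. Here and below, a floor covers the counting error of the group with 0 reads only, not that of the other IP group or the inputs. The counting intervals cover both IP groups. Neither covers the spread between libraries.

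A complete loss from the IP of 1 treatment was rare. No transcript had 0 reads in all water IP libraries and at least 10 reads in each ammonium IP library and each input, and 4 had the reverse pattern. The counts were not taken without replicate 1 of the water IP. With the most IP reads among the 4, pp_160405 had 35, 14 and 34 reads in the water IP and 0 in the ammonium IP. Its input was 295, 210 and 192 reads with water and 160, 11 and 23 with ammonium, so much of the IP difference was shared with the input. With the inputs pooled, its ratio was at least 8.54-fold lower, or 7.62-fold without replicate 1 of the water IP. Most of the pooled ammonium input reads came from replicate 1, and no bound was taken without that input library. The next, pp_214953, had 26, 10 and 12 reads against 0 and inputs of 30 to 94 against 38 to 70 reads, and a ratio at least 14.1-fold lower, or 9.94-fold without that library.

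Without replicate 1 of the water IP, the smallest p-values with a higher ratio belonged to transcripts that had reads in that library and none in the other water IP libraries. For pp_196481 the water IP had 73, 0 and 0 reads and the ammonium IP 18, 14 and 7, at inputs of 3546 to 4440 reads. The ratio change was -0.49 with all libraries, and without replicate 1 the ratio was at least 8.35-fold higher with ammonium. For pp_56486 the reads were 30, 0 and 0 against 8, 10 and 10. Its ratio change was 0.49 with all libraries, and the ratio was at least 6.86-fold higher without replicate 1. The direction of pp_196481 thus rested on replicate 1 of the water IP. That of pp_56486 was the same with and without it, but the ratio change was -0.0855 without replicate 2 of the water IP. Its sign also changed without replicate 3 of the water IP.

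Opposite movement of input and IP was looked for in the 68118 transcripts tested in both, with the 6 inputs and the 6 IP libraries fitted apart. In the input 7330 (10.8%) and in the IP 9330 (13.7%) had an unadjusted p under 0.05. Both passed this threshold with opposite signs in 80 transcripts (0.117%) and with equal signs in 1752 (2.57%), of which 977 were higher and 775 lower with ammonium in both. At this threshold, unrelated tests without any change would give an opposite share of about this size. The 80 are therefore not shown to move in opposite directions. Of the 80, 77 had a higher input and a lower IP, and 3 a lower input and a higher IP. With replicate 1 of the water IP left out, 18 of 69698 (0.0258%) were opposite, 15 and 3 in the same order, and 1213 (1.74%) were equal. The lists of 80 and 18 shared 5 transcripts, which is 6.25% of the former and 27.8% of the latter. Over all transcripts tested in both, whatever their p, the signs were opposite in 39.4%, and in 36.8% without that library.

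**Figure D5:**
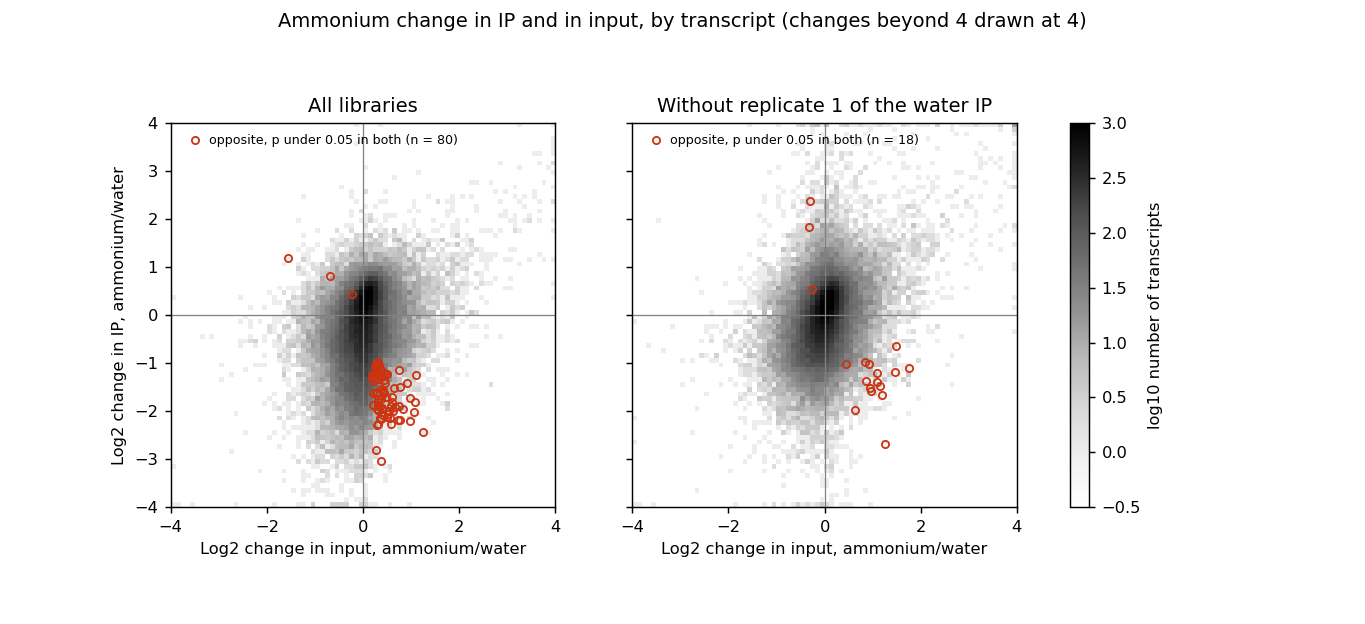
Log2 change with ammonium in the IP (vertical axis) against that in the input (horizontal axis) for transcripts tested in both, with all libraries (left) and with replicate 1 of the water IP left out (right), the colour giving the log10 number of transcripts and changes beyond 4 being drawn at 4. Circles mark the transcripts with opposite signs and p under 0.05 in both, 80 on the left, nearly all with a higher input and a lower IP, and 18 on the right.

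The opposite transcripts lay mostly between 2 and 50 CPM. From the lowest stratum to the highest they numbered 2, 11, 29, 32 and 6, beside 18, 148, 560, 779 and 247 of equal sign. The opposite ones numbered 1, 6, 8, 1 and 2 when replicate 1 of the water IP was left out, beside 21, 107, 329, 543 and 213 of equal sign. From 10 to 50 CPM the count thus went from 32 to 1 while that of equal sign went from 779 to 543.

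The 77 transcripts with a higher input and a lower IP were chosen by their p in both fits, so the counts below describe them and test nothing. In the input their log2 changes had a median of 0.39. In the IP the median was -1.69, and -0.58 without that library, which held the highest of the 3 water IP levels in 72 of 77, and its level over the mean of replicates 2 and 3 had a median of 4.21 (range 0.631 to 22.9), above 2 in 66. In 54 the mean ratio was at least 4-fold lower in the IP, and 0 had a listed peak. In 23 of 77 all water IP libraries lay above all ammonium IP libraries, and in 48 the inputs did not overlap. Over all 68118 transcripts tested in both, replicate 1 was the highest water IP library in 53.5%, and its level over the mean of the others had a median of 1.23 and was above 2 in 28.5%. The mean ratio was at least 4-fold lower in 21.9% and a listed peak was present in 8.23%. All water IP libraries lay above all ammonium IP libraries in 10.1%, and the ammonium inputs all above the water inputs in 7.6%. Without that library 74 of the 77 still had a lower IP and 5 of them an unadjusted p under 0.05. Of the 80 opposite transcripts, 21 lay within 5 ID numbers of another and may share reads.

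Of these, pp_145075, described above, had the smallest p by the rule used for naming, and the next 4 differed in how far they rested on that library. For these 5 the adjusted p in edgeR was 0.202 to 0.307 in the input and 0.464 in the IP, so neither change was called. For pp_247335 the input was 61.3, 64.9 and 58.1 CPM with water and 140, 105 and 71.1 with ammonium, and the IP was 17.4, 3.69 and 4.06 CPM against 1.55, 2.32 and 1.53. Neither pair of groups overlapped, and the ratio change was -2.65 (SE 0.63) with all libraries, or -1.75 without replicate 1 of the water IP. The transcript pp_249162 was abundant in the input, at 190, 190 and 203 CPM against 208, 248 and 251, and scarce in the IP, at 8.96, 2.77 and 4.11 CPM against 2.21, 1.72 and 1.79. Its ratio change was -1.43, or -1.02 without that library. For pp_86978 the IP was 4.46, 0.765 and 1.28 CPM against 0.373, 0.629 and 0.397, and the ratio change was -2.23, or -1.35 without it.

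Of the 5 named with a higher input and a lower IP, pp_72876 differed most between the fits with and without that library. Its input was 68.5, 61.1 and 72.9 CPM with water and 73.9, 74.4 and 87.2 with ammonium. Its IP was 78.7, 2.19 and 4.69 CPM with water and 2.87, 3.01 and 4.00 with ammonium, so replicate 1 of the water IP was at the level of the inputs and the other 5 IP libraries overlapped. The ratio change was -2.95 (SE 1.18) with all libraries and -0.17 (SE 0.33) without it.

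The 3 transcripts with a lower input and a higher IP had ratio changes of like size without that library. With all libraries their adjusted p in edgeR was 0.316 to 0.458 in the input and 0.466 to 0.471 in the IP, so neither change was called. The IP of pp_233397 was 35.4, 36.7 and 33.9 CPM with water and 39.9, 45.0 and 39.2 with ammonium, and its input 39.1, 37.6 and 40.1 against 33.4, 28.2 and 34.0. Neither pair of groups overlapped, and the ratio change was 0.79 (SE 0.19), or 0.64 without replicate 1 of the water IP. Of 10 tested IDs within 5 numbers of it, 4 had a ratio change of the same sign at an unadjusted p under 0.05 and may share reads. For pp_190971 the input was 1.08, 1.35 and 1.41 CPM against 0.725, 0.741 and 0.841 and the IP 2.58, 2.40 and 3.66 CPM against 5.32, 3.13 and 4.71, with overlap in the IP. Its ratio change was 1.60 (SE 0.46), or 1.37 without that library, and its peak has a fold of 3.77 for water, at positions 99 to 197, and 10.3 for ammonium, at 50 to 197, in the authors' deposited table. The scarcest, pp_109829, had 0.135, 0.199 and 0.145 CPM against 0.0381, 0.0269 and 0.0878 in the input and 0.693, 0.782 and 0.311 against 1.02, 1.02 and 1.48 in the IP. Its ratio change was 2.87 (SE 0.77), or 2.81 without that library. Without replicate 1 of the water IP the IP p-values of these 3 lay above 0.05, at 0.0552, 0.0904 and 0.0505 unadjusted in edgeR, so they are absent from the 3 of that kind counted in that fit.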

How the data were processed

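The authors deposited a table of raw read counts with 1 row for each transcript ID and 1 column for each of 12 libraries, not normalized, per the file headers. The tools bcl2fastq and BWA are named in the submitters' processing notes. For their versions, the reference sequences, the counting rule, strandedness and library kit, no statement is given in the sources used here. Reads may therefore be shared by transcripts with common sequence. Of 253670 transcripts, 16801 had no read. The authors also deposited 1 peak list for each treatment, with a p-value and a fold enrichment (a ratio of IP over input) for each peak, per the file headers; the peak caller is not given, the p-values were not used, and the lists served to class transcripts.

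The interaction test was run on the counts in edgeR 4.0.16 under R 4.3.3 (trimmed mean of M-values, default filter with minimum count 10 and minimum total 15, robust quasi-likelihood fit of 4 group means, two-sided test of the interaction). Transcripts with a Benjamini-Hochberg adjusted p under 0.05 were called. The input and IP changes came from separate fits of 6 libraries each. Levels of single transcripts are CPM of the library total. Medians per library are of log2 CPM with a prior count of 0.5, and their interaction was tested by exact permutation. Strata had bounds of 0.5, 2, 10 and 50 CPM, and ratio classes a bound of 4-fold.

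Transcripts were named by 4 rules: the 3 of lowest p in each direction and stratum from 0.5 CPM whose ratios did not overlap; the 5 in each direction with opposite changes whose larger p was smallest; the 2 of lowest p in each direction without replicate 1 of the water IP; and the 2 with the most reads among those absent from the IP of 1 treatment. The members, bounds and rules were chosen with earlier results of these data known.

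Replicate pairs of 1 group differed beyond sampling noise, with chi-square per degree of freedom of 10.6 to 51.4. Alternatives were other scalings, filters and strata, DESeq2 1.42.0, limma 3.58.1 voom with sample weights, replicate blocks, and omission of each library. Thinning to the lowest library total, DESeq2 and voom with replicate 1 of the water IP omitted, its omission with the transcripts held fixed, and other scalings for the ratio classes, peak classes and values per IP library were chosen after seeing the data. The fits were tested on simulated data.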

Additional observations from a re-analysis of the deposited data

How the results depend on the processing

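No transcript was called for the ratio change with library size scaling, size factors of the DESeq2 type, a filter of 50 reads, no filter, no robust estimation or thinned counts. DESeq2 called 93 transcripts, and 78 with replicate 1 of the water IP omitted (19 higher, 59 lower). Voom with sample weights called 1, and 0 with that library omitted. Omission of 1 library each gave 0 to 28. No pairing by replicate number was seen in deviations from the group means. These correlated at -0.0511 to 0.0776 over 6 pairs of IP and input of the same treatment and number. Across treatments they correlated at -0.0567 to 0.0936 over 12 pairs. Pairing is not excluded, because 66900 of the 148273 transcripts used were under 0.5 CPM, where counting noise is large. With either replicate block 0 transcripts were called (smallest adjusted p = 0.697 and adjusted p = 0.958 in edgeR), and with the number as a block 40 transcripts were opposite in input and IP.

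The count of 80 opposite transcripts was 39 with the filter of 50 reads, 353 with no filter, 5 with log2 changes of at least 1 in both and 50 in a single fit of all 12 libraries. Over omissions of 1 library it ran from 18 to 641. It was 641 without replicate 2 and 147 without replicate 3 of the water IP, and for the ammonium IP it was 18 without replicate 1, 42 without replicate 2 and 19 without replicate 3. It was 33 without replicate 1 of the water inputs and 127 without replicate 1 of the ammonium inputs.

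The median log2 ratio change by abundance stratum, 10 to 50 CPM, taken over library medians, changed sign with library size scaling (-0.0228) and with strata by input level (-0.0058). With replicate 1 of the water IP omitted and the same transcripts, those from 0.5 to 2 CPM and from 2 to 10 CPM changed sign (0.0153 and 0.13). Over omissions of 1 library the strata ran, from lowest to highest, from -0.46 to -0.12, -0.38 to -0.07, -0.21 to 0.0409, 0.15 to 0.33 and 0.17 to 0.42. The highest minus the lowest ran from 0.29 to 0.89. The ratio classes ran, from most depleted to most enriched, from -1.19 to -0.0025, -0.41 to 0.04, 0.16 to 0.34 and -0.23 to 0.31. With library size scaling the class up to 4-fold higher in the IP was at -0.0017. The class at least 4-fold higher also changed sign, to -0.25, and was below 0 with size factors of the DESeq2 type too. The median over all transcripts was -0.27 with size factors of the DESeq2 type and -0.50 with library size scaling.

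Of 35 named transcripts, 24 were chosen for ratios that do not overlap, so a kept sign is no measure of stability for them. Of the other 11, 4 of 129 values under other settings and 3 of 132 with 1 library omitted changed sign, all of pp_196481 and pp_56486. The ratio change of pp_196481 was 0.56 with the block of treatment and number, 3.57 with voom, 6.13 with DESeq2 and 4.71 with voom when replicate 1 of the water IP was omitted, and -1.07 to 7.27 over omissions of 1 library. That of pp_56486 ran from -0.0855 to 6.99 over these. Fitted values of transcripts with groups at 0 reads depend on the prior count. The cause of these differences was not tested. The intervals of single ratio changes widen from the highest stratum to the lowest, and depth and spread between libraries were not separated there.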

Other observations

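The reads of the IP were held by fewer transcripts than those of the input. The number of most abundant transcripts that together held 50% of the reads was 4457 to 4792 in the inputs, 3146, 2599 and 2443 in the water IP and 2225, 2168 and 2260 in the ammonium IP. All ammonium IP libraries lay below all water IP libraries, but the interaction of -406.7 transcripts did not pass (two-sided exact permutation p = 0.215), and it was -198.3 without replicate 1 of the water IP (exact permutation p = 0.345).

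Absence from the IP of 1 treatment was more frequent on the ammonium side when no input reads were required. Of 253670 transcripts, 97 had 0 reads in all ammonium IP libraries and 14 in all water IP libraries. This was with at least 5 reads in each IP library of the other treatment, and with at least 10 reads there were 9 and 1. The ammonium IP was the deeper of the 2, and these counts were not tested. They were not taken without replicate 1 of the water IP, which alone of the water IP libraries had reads of pp_196481 and pp_56486.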
